A study of Mus musculus with 23 samples.

Results

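The genes described here encode MAP kinase phosphatases (Dusp1, Dusp2, Dusp3, Dusp4, Dusp6 and Dusp14) and the Sprouty and Spred feedback inhibitors (Spry1, Spry2, Spry4 and Spred1). They were taken through probe sets that the platform annotation ties to 1 symbol, and each gene was read from a single probe set, its main one. Of the 10 genes, 9 had such a probe set, out of 12393 genes read in this way on the array, and Dusp4 was not analysed here. The 9 genes had 14 probe sets in all. Where a gene had several, the brightest was chosen by its mean log2 intensity across the arrays, and the list was proposed with results of these data in view, so its counts are descriptions and not independent evidence. The adjusted p-values below come from fits over all 22626 probe sets.

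ERK, JNK and p38 are MAP kinases that carry growth factor and stress signals to the nucleus when they are phosphorylated. Dual-specificity phosphatases remove those phosphates, and several of them are transcribed in answer to the pathway they switch off. Sprouty and Spred proteins act higher up, between receptors and Raf, so that the family as a whole forms a set of negative feedback loops. In T cells the same cascades run downstream of the antigen receptor.

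RNA was profiled on Affymetrix mouse expression arrays, 23 in 6 groups. Mouse embryonic fibroblasts (MEFs) of embryonic stage E13.5 formed 2 sets: Ezh2-deficient MEFs with wild-type MEFs, and Snf5 Ezh2-deficient MEFs with wild-type MEFs, with 3 arrays in each group. Ezh2 methylates histone H3 within a Polycomb complex. Snf5 is the product of Smarcb1 and belongs to the core of SWI/SNF, which remodels nucleosomes. The series describes both as conditionally inactivated, and the sources used here name no Cre driver or delivery. No MEFs lacking Snf5 alone were among the samples, so Snf5 loss is seen in fibroblasts only together with Ezh2 loss. The third set held 5 Snf5-deficient CD8+ T cell lymphomas and 6 wild-type CD8+ T cell samples, from mice 10 to 15 weeks old. The titles call the samples biological replicates, and whether each came from a separate animal or culture is not stated further. The p-values thus measure the spread between these samples.

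The targeted genes followed the labels. Ezh2 changed by -2.18 on the log2 scale in Ezh2-deficient MEFs and by -1.66 in Snf5 Ezh2-deficient MEFs, against wild type. Smarcb1 changed by -2.46 in Snf5 Ezh2-deficient MEFs and by -3.65 in lymphomas, and in all 4 cases the groups did not overlap. The lists of fibroblast and CD8 T cell markers matched the labelled cells on the MEF arrays, where the fibroblast list averaged 11.2 to 11.8 and the CD8 T cell list 5.03 to 5.33. The wild-type arrays of both MEF sets repeated each other. Once the constant shift of each probe set was taken out, arrays of equal number differed with an SD of 0.0266 to 0.0287, against 0.141 to 0.163 for different numbers. They were counted once, so both MEF comparisons share all their controls. The wild-type CD8+ arrays 1 and 6 stood apart from the other wild-type arrays and are described with the lymphoma comparison.

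Promoters are shown for Dusp1, Dusp2 and Spry1, which were called lower in Snf5 Ezh2-deficient MEFs, lower in lymphomas and higher in Snf5 Ezh2-deficient MEFs. Each is the 250 bases upstream of the annotated start in RefSeq, build GRCm38.p6, and 8 of the 10 genes were in the promoter table. Searched on both strands were the cyclic AMP response element TGACGTCA, its shorter form TGACGTC that the full element contains, the E-box CACGTG, the ETS motif CCGGAAGT and the AP-1 motif TGANTCA, and capitals mark the matches. The sequence of Dusp1 is chr17:26508473-26508722 on the minus strand, that of Dusp2 chr2:127335909-127336158 on the plus strand, and that of Spry1 chr3:37639697-37639946 on the plus strand.
Dusp1: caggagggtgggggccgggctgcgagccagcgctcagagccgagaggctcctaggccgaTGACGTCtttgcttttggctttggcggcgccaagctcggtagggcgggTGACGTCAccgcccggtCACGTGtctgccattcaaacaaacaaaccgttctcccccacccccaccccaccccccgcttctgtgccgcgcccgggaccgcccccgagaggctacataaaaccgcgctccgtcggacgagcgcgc
Dusp2: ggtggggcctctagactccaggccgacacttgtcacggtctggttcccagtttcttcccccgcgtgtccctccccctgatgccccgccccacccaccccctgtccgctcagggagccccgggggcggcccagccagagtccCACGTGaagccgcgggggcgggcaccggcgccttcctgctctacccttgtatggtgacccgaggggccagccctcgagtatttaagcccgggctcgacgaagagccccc
Spry1: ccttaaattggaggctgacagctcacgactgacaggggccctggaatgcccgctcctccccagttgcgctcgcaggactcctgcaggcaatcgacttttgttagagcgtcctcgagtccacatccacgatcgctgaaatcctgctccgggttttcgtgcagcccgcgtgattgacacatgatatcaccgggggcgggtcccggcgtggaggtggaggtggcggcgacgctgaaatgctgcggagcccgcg
The Dusp1 window held TGACGTCA at -143 and CACGTG at -126, and a further TGACGTC at -191. The Dusp2 window held CACGTG at -109, and none of the 5 motifs was found in the Spry1 window. Of the 8 promoters searched 2 held a match, and the windows of Dusp3, Dusp6, Dusp14, Spry2 and Spred1, not printed here, held none. Among 32851 promoters of the same length, 1.55% held TGACGTCA, 2.78% TGACGTC, 6.02% CACGTG, 2.88% CCGGAAGT and 6.75% TGANTCA. The GC content was 68.4% for Dusp1, 70.4% for Dusp2 and 62.4% for Spry1, against a median of 52.4% over all promoters. A match describes letters and is no evidence of a bound factor.

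Loss of Ezh2 alone left none of the 9 genes past the threshold of 0.05 on the adjusted p. Among all genes 3.49% were called in this comparison, 1.02% as higher and 2.47% as lower. The median change was 0.0033 on the log2 scale over the 9 genes and 0.004 over all genes. The groups overlapped for all 9, while they did not for 32.7% of all genes. The largest changes of the 9, in either direction, were those of Dusp1, which encodes a nuclear phosphatase of p38, JNK and ERK, and Spry1. Dusp1 had log2 intensities of 11.09, 10.89 and 10.98 in Ezh2-deficient MEFs, against 11.38, 11.04 and 11.43 in wild-type MEFs, a change of -0.29 (SE 0.111, adjusted p = 0.155). Spry1 had 8.53, 8.23 and 8.32 in Ezh2-deficient MEFs, against 7.90, 8.29 and 8.01 in wild-type MEFs, a change of 0.29 (SE 0.104, adjusted p = 0.133). Neither gene separated the groups. By the main probe sets, the other 7 changes lay between -0.04 for Dusp14 and 0.23 for Spry4, and their intervals all held 0. On 2 other probe sets the groups did not overlap, although neither was called. The second Spry4 probe set gave 0.19 (interval 0.0016 to 0.38, adjusted p = 0.207), and the second Spred1 probe set gave -0.16 (adjusted p = 0.253). The interval of Dusp6, from -0.30 to 0.48, was the widest of the 9.

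In MEFs lacking both Snf5 and Ezh2, 4 of the 9 genes passed the threshold: Spry1 and Dusp3 were higher, and Dusp14 and Dusp1 were lower. Among all genes 27.5% were called, 13.2% as higher and 14.3% as lower. The groups did not overlap for 6 of the 9 genes and for 43.2% of all genes. The 9 genes had a median change of -0.12, against -0.0028 over all genes.

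Spry1, an inhibitor of signalling from fibroblast growth factor and other receptors, had the largest change of the 9. It had 9.27, 9.32 and 9.38 in Snf5 Ezh2-deficient MEFs, against 7.87, 8.24 and 8.04 in wild-type MEFs. All arrays of the mutant lay above all wild-type arrays. The change was 1.28 (SE 0.104, 2.42-fold, adjusted p = 2.05e-05), and it was called in all 15 alternative fits. For genes with 1 probe set, such as Spry1 and Dusp14, the alternative with another probe set repeats the main fit. It could not lose the call, and it is counted among the alternative fits here and below.

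Dusp14, a small phosphatase known in T cells as a brake on signalling from the antigen receptor, moved the other way. It had 8.21, 8.07 and 8.12 in Snf5 Ezh2-deficient MEFs, against 9.22, 9.13 and 9.07 in wild-type MEFs, with no overlap. The change was -1.01 (SE 0.0969, 2.01-fold lower, adjusted p = 5.82e-05), again called in all 15 alternative fits. Dusp1 had 10.62, 10.47 and 10.37 in Snf5 Ezh2-deficient MEFs, against 11.24, 10.89 and 11.35 in wild-type MEFs. These arrays did not overlap either, and the change was -0.67 (SE 0.111, 1.59-fold lower, adjusted p = 0.00151).

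Dusp3, which encodes a small phosphatase that acts on ERK and JNK, showed a narrow difference. It had 10.58, 10.52 and 10.53 in Snf5 Ezh2-deficient MEFs, against 10.32, 10.33 and 10.37 in wild-type MEFs, a change of 0.20 (SE 0.0649, adjusted p = 0.0422). The groups did not overlap, but the call was lost whenever any 1 of the 6 arrays was left out, with adjusted p between 0.0741 and 0.117. The second Dusp3 probe set gave 0.07 (adjusted p = 0.608). The repeated wild-type arrays had 10.48, 10.48 and 10.49 in the other set, so the summary of each set moved this probe set by an amount near the size of the change.

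The other 5 genes were not called. Spry2, a Sprouty of the same family, had 8.63, 8.78 and 8.67 in Snf5 Ezh2-deficient MEFs, against 8.93, 8.87 and 8.92 in wild-type MEFs, a change of -0.22 (adjusted p = 0.114). Dusp6, the cytoplasmic phosphatase of ERK, changed by -0.15 (adjusted p = 0.605). Dusp2, a nuclear phosphatase known from activated lymphocytes, changed by -0.12, Spry4 by 0.11, and Spred1, which keeps Ras inactive through neurofibromin, by 0.00. In Spry2 and Dusp6 the groups did not overlap, although neither was called.

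**Figure D1:**
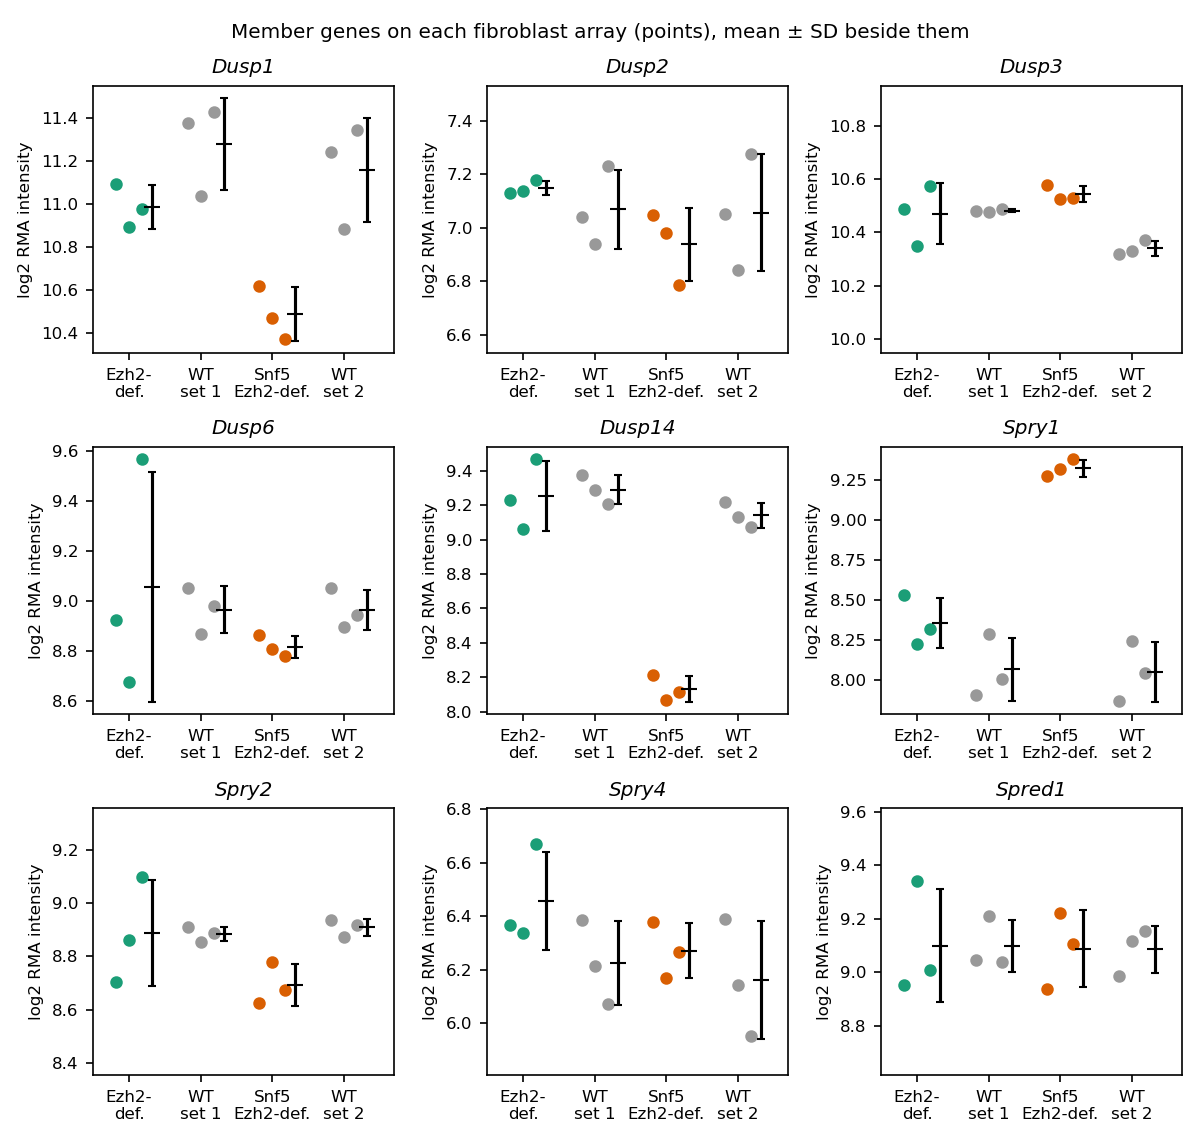
Log2 RMA intensity of the 9 genes on each MEF array, with each mutant to the left of the wild type of its own set; points are arrays and the bar beside them is the mean ± SD (n = 3). In Snf5 Ezh2-deficient MEFs the Spry1 points lie from 9.27 to 9.38, above wild type, and the Dusp14 points from 8.07 to 8.21, below it.

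The plot of values by MEF array shows Spry1 and Dusp14 in Ezh2-deficient MEFs overlapping wild type. The difference between both mutants was tested directly, after the shared controls had been used to put both sets on 1 scale. Of the 9 genes 4 were called, beside 29.9% of all genes, of which 16.3% were higher and 13.6% lower. The groups did not overlap for 5 of the 9 and for 44.2% of all genes. Spry1 was higher by 0.98 in Snf5 Ezh2-deficient than in Ezh2-deficient MEFs (SE 0.104, adjusted p = 0.000103) and Dusp14 was lower, with a change of -0.97 (SE 0.0969, adjusted p = 7.38e-05), and both were called in all 14 alternative fits. Dusp1 differed by -0.38 (adjusted p = 0.0304) and Dusp3 by 0.21 (adjusted p = 0.0329). Leaving out 1 array ended the Dusp1 call in 4 of 6 cases and the Dusp3 call in 5 of 6. Ezh2 itself was higher by 0.52 in Snf5 Ezh2-deficient than in Ezh2-deficient MEFs (adjusted p = 0.00812), and the groups did not overlap. Both mutants thus differed in remaining Ezh2 RNA as well as in Smarcb1, and the part of either in these changes was not tested.

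**Figure D2:**
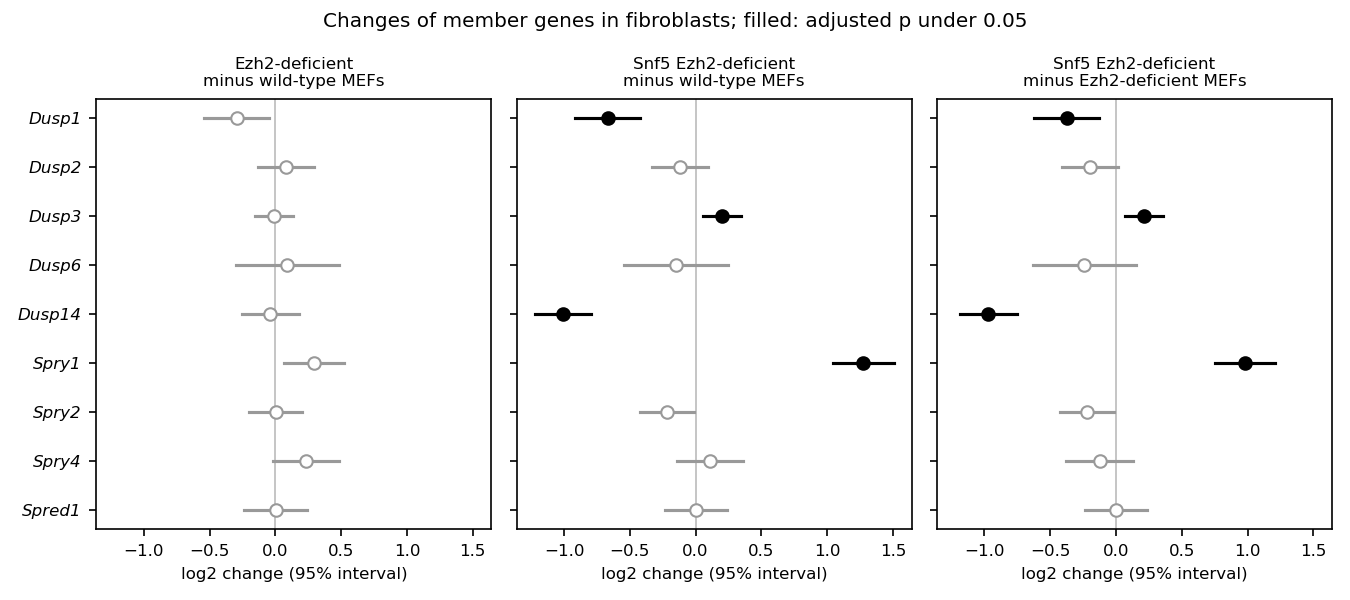
Log2 change of the 9 genes in the 3 MEF comparisons with 95% intervals of the limma fit; filled points have an adjusted p under 0.05. No point is filled for Ezh2-deficient minus wild-type MEFs, and 4 are filled in each of the other comparisons.

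The plot of changes with their intervals places Spred1 at 0 in all 3 MEF comparisons, with intervals of about the same width. Proliferation transcripts moved in these comparisons too. Of 22 measured, 13 were lower in Ezh2-deficient than in wild-type MEFs, 0 were called between Snf5 Ezh2-deficient and wild-type MEFs, and 18 were higher in Snf5 Ezh2-deficient than in Ezh2-deficient MEFs. The count of 13 was 2 without Ezh2-deficient array 1, wild-type array 2 or wild-type array 3. Xist had 6.45, 9.56 and 9.52 in Ezh2-deficient MEFs, against 6.28, 6.19 and 6.37 in wild type. Eif2s3y had 8.24, 3.65 and 4.00 in Ezh2-deficient MEFs, against 8.25, 8.11 and 8.19 in wild type. In Snf5 Ezh2-deficient MEFs Xist had 6.35, 6.37 and 6.27, and Eif2s3y had 8.14, 8.16 and 8.53. Ezh2-deficient arrays 2 and 3 thus differed in these transcripts from all arrays of the other mutant. The part of the proliferation and sex-linked transcripts in the changes of Spry1, Dusp14, Dusp1 and Dusp3 between both mutants was not tested. In bulk RNA, fewer cells of a type and less RNA per cell cannot be told apart.

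The pathway around these genes changed in both directions in Snf5 Ezh2-deficient MEFs. Of 102 measured genes in 7 pathway lists, 50 were called (49.0%, beside 27.5% of all genes), 19 as higher and 31 as lower. The lists were chosen with earlier results of these data known, so this share is a description. Among 16 genes of growth factor families, 2 were higher and 6 lower than in wild-type MEFs. Fgf18 rose by 1.17 (adjusted p = 8.99e-06), and Fgf13 and Hbegf, an epidermal growth factor receptor ligand, changed by -1.64 (adjusted p = 1.39e-05) and -0.83 (adjusted p = 0.000812). Of 16 receptors and adaptors, 5 were higher and 1 lower, and 3 to 5 were higher with 1 array left out. Pdgfra, a platelet-derived growth factor receptor, rose by 1.76 (adjusted p = 0.000469), and Gab1, a docking adaptor, by 0.68 (adjusted p = 0.00013).

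Among 12 genes of the Ras, Raf, MEK and ERK cascade 2 were higher and 4 lower. Map2k1, which encodes a MEK protein, changed by -0.51 (adjusted p = 0.000259) and Araf by 0.48 (adjusted p = 0.000626). Of 13 genes of the JNK and p38 cascade 4 were lower and 0 higher, led by Mapk13, a p38 kinase, at -1.49 (adjusted p = 2.57e-05). Of 20 transcripts known to be induced by ERK, 4 were higher and 9 lower, with 6 to 9 lower when 1 array was left out. Plaur, the urokinase receptor, changed by -1.35 (adjusted p = 2.3e-05), and Epha4 by 0.96 (adjusted p = 0.00128). Their median was -0.27, against -0.0028 over all genes.

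Other dual-specificity phosphatases numbered 13, with 2 higher and 4 lower, the lower count being 1 to 3 with 1 array left out, and Dusp7, a phosphatase of ERK, changed by -0.67 (adjusted p = 0.00378). Of 12 other inhibitors of the pathway 4 were higher and 3 lower, with Errfi1, an inhibitor of the epidermal growth factor receptor, at 0.89 (adjusted p = 0.0096) and Rasa1, a Ras GTPase activator, at -0.56 (adjusted p = 7.8e-05). In Ezh2-deficient MEFs the same 7 lists held 3 called genes of 102 (2.94%, beside 3.49% of all genes). These were Fgf2 at 0.75 (adjusted p = 0.0358), Fgf10 at -0.90 (adjusted p = 0.0239) and Map2k6 at -0.41 (adjusted p = 0.0337). With 1 array left out, Fgf2 kept its call in 2, Fgf10 in 3 and Map2k6 in 1 of 6 fits. The Fgf2 probe set lay in the lowest 25% of values on all 3 wild-type arrays.

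On the T cell arrays the wild-type group was not uniform. Over 13 macrophage and myeloid genes the mean was 8.77 to 10.9 on the lymphoma arrays, against 12.5 to 12.6 on wild-type CD8+ arrays 1 and 6 and 6.99 to 9.01 on wild-type arrays 2 to 5. Over 7 B cell genes it was 6.52 to 7.19 in lymphomas, against 10.9 to 11.1 on wild-type arrays 1 and 6 and 7.89 to 8.63 on wild-type arrays 2 to 5. Over 9 CD8 T cell genes it was 11.6 to 12.8 in lymphomas, against 10.7 to 11.2 on wild-type arrays 1 and 6 and 12.5 to 13.1 on wild-type arrays 2 to 5. Arrays 1 and 6 were thus high in myeloid and B cell markers and low in those of CD8 T cells. Cd8a itself lay between 13.12 and 13.55 in lymphomas, against 10.73 and 10.59 on wild-type arrays 1 and 6 and 13.32 to 13.64 on wild-type arrays 2 to 5. Leaving out arrays 1 and 6 was a choice made after the marker values were seen. The other wild-type arrays were not uniform either. Cd4 had 9.63 and 11.11 on wild-type arrays 2 and 5, against 6.58 and 6.25 on arrays 3 and 4. Over 4 erythroid genes the mean was 8.33 and 8.63 on wild-type arrays 2 and 5, against 5.43 and 5.30 on arrays 3 and 4. Of the 13 myeloid genes, 0 were called in lymphomas with all arrays, and 7 were called higher without wild-type arrays 1 and 6.

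**Figure D3:**
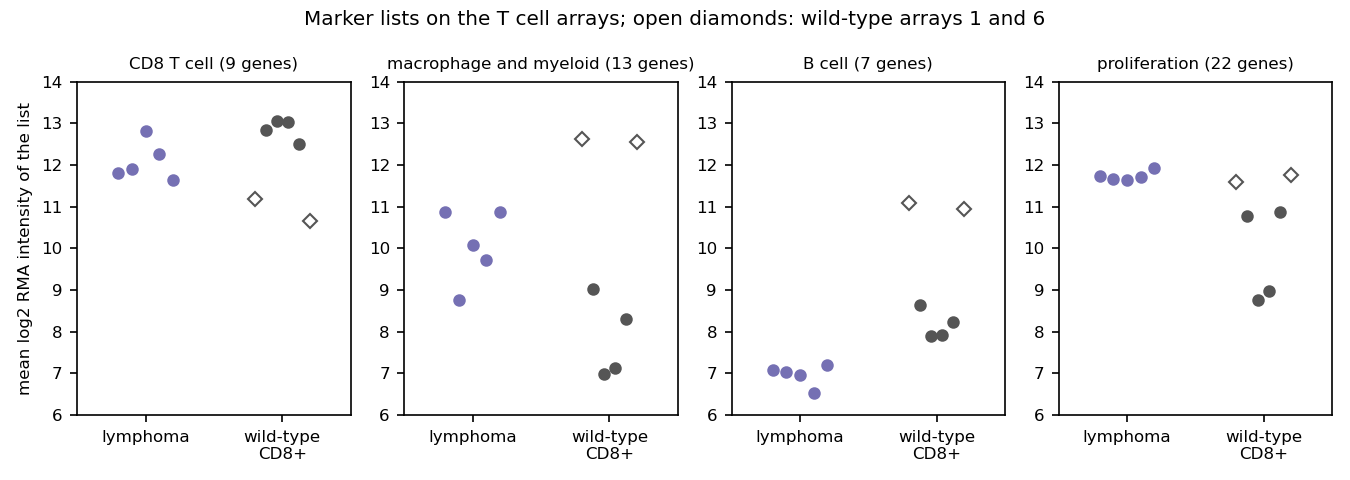
Mean log2 RMA intensity of 4 marker lists on each T cell array, lymphomas left and wild-type CD8+ right; open diamonds are wild-type arrays 1 and 6. The diamonds lie above all other arrays for the myeloid and B cell lists and below them for the CD8 T cell list.

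The plot of marker lists also shows proliferation transcripts at 11.6 to 11.9 in lymphomas and at 8.75 to 10.9 on wild-type arrays 2 to 5, with wild-type arrays 1 and 6 at 11.6 to 11.8. Of 22 proliferation transcripts 4 were called higher in lymphomas, and 15 without wild-type arrays 1 and 6; with 1 array left out the count ran from 0 to 8. Over 5 NK cell genes the mean was 5.92 to 8.54 in lymphomas, against 10.2 to 10.5 on wild-type arrays 1 and 6 and 8.87 to 11.1 on wild-type arrays 2 to 5, and 2 of the 5 were called lower, or 1 without wild-type arrays 1 and 6. Sex-linked transcripts differed too. Xist, expressed from the inactive X chromosome, had 13.19 and 12.25 in lymphomas 1 and 5 and 4.85 to 5.44 in lymphomas 2 to 4, against 12.85 to 13.51 in wild type. Y-linked Eif2s3y had 3.45 and 3.32 in lymphomas 1 and 5 and 11.81 to 12.55 in lymphomas 2 to 4, against 9.84 and 6.11 on wild-type arrays 3 and 4 and at most 3.91 on the other 4. The part of these differences in the results below was not tested.

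In lymphomas 3 of the 9 genes passed the threshold: Dusp14 and Dusp3 were higher and Dusp2 was lower. Among all genes 16.8% were called, 9.13% as higher and 7.71% as lower. The groups did not overlap for 1 of the 9 genes and for 12.8% of all genes. Without wild-type arrays 1 and 6, 4 of the 9 were called, beside 26.4% of all genes, with Spry2 added as higher. The median change of the 9 genes was -0.12, against -0.07 over all genes.

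Dusp14 had 11.81, 11.66, 11.36, 10.66 and 11.30 in the 5 lymphomas, while the 6 wild-type CD8+ arrays ran from 4.37 through a median of 5.29 to 8.99. No wild-type array reached a lymphoma, and the highest wild-type values, 8.99 and 7.11, were those of arrays 1 and 6. The change was 5.34 (SE 0.72, 40.5-fold, adjusted p = 0.000889). It was 6.35 without arrays 1 and 6 (81.8-fold, adjusted p = 1.7e-06) and was called in all 19 alternative fits. On wild-type arrays 2 and 3 the probe set lay in the lowest 25% of values, so the fold is one of values near the floor.

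Dusp2 had 7.40, 6.66, 6.84, 8.16 and 8.00 in lymphomas, while wild-type CD8+ arrays ran from 8.04 through a median of 11.45 to 12.29. Wild-type arrays 2 to 5 lay between 11.15 and 12.29, above every lymphoma, and arrays 1 and 6, at 8.04 and 8.55, lay near the lymphomas, with array 1 below the highest lymphoma. The change was -3.21 (SE 0.795, 9.27-fold lower, adjusted p = 0.0203), and -4.38 without arrays 1 and 6 (20.8-fold lower, adjusted p = 6.04e-05). Leaving out lymphoma 3 gave an adjusted p of 0.0512.

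Dusp3 had 10.73, 10.22, 11.06, 10.05 and 10.80 in lymphomas, while wild-type CD8+ arrays ran from 4.21 through a median of 5.63 to 10.32. Wild-type arrays 1 and 6, at 10.04 and 10.32, were level with the lymphomas, and the other 4 lay between 4.21 and 5.91. The change was 3.75 (SE 1.09, 13.4-fold, adjusted p = 0.0408), and 2 of the 11 fits without 1 array kept the call, those without wild-type array 1 or 6. Without arrays 1 and 6 it was 5.43 (43.0-fold, adjusted p = 1.52e-05). The main probe set lay in the lowest 25% of values on 2 of the 6 wild-type arrays, so both folds rest in part on values near the floor. The second Dusp3 probe set was higher in lymphomas by 2.07 (adjusted p = 0.00121), with values of 6.07 to 7.59 in lymphomas and 4.18 to 5.56 on wild-type arrays, and on that probe set wild-type arrays 1 and 6, at 4.88 and 5.03, did not stand apart. It lay in the lowest 25% of values on 5 of the 6 wild-type arrays.

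**Figure D4:**
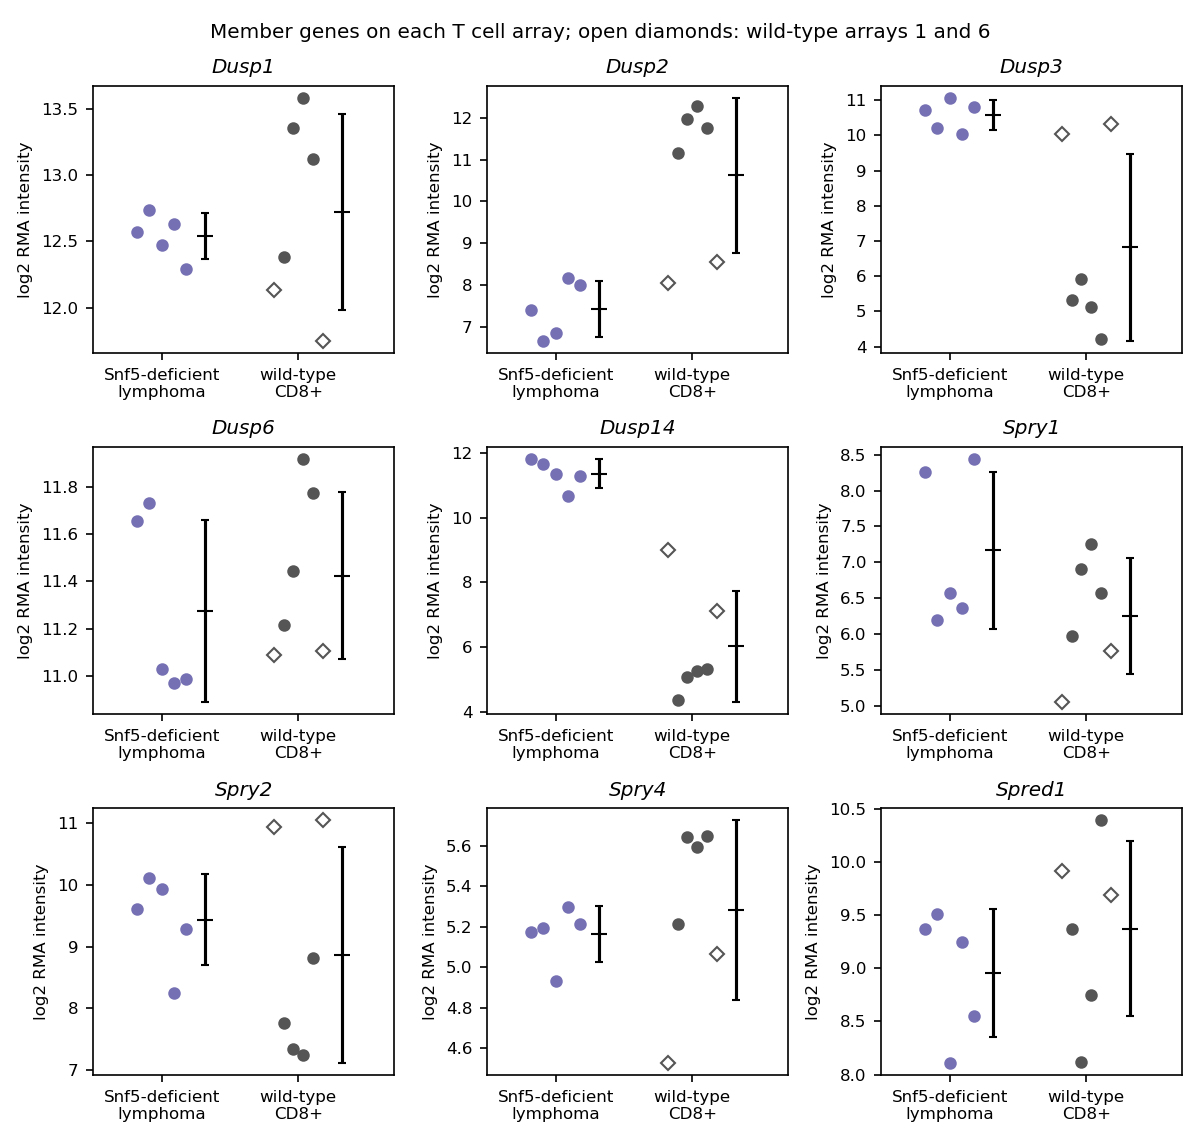
Log2 RMA intensity of the 9 genes on each T cell array, lymphomas left and wild-type CD8+ right; open diamonds are wild-type arrays 1 and 6, and the bar beside the points is the mean ± SD (n = 5 and 6). For Dusp2 and Dusp3 the diamonds lie with the lymphomas, and for Dusp14 they lie between the lymphomas and the other wild-type arrays.

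The plot by T cell array shows the Sprouty genes and the remaining phosphatases with overlapping groups. Spry2 had 9.61, 10.11, 9.93, 8.25 and 9.29 in lymphomas, and wild-type arrays 1 and 6, at 10.94 and 11.05, exceeded all of them, while wild-type arrays 2 to 5 lay between 7.25 and 8.82. Its change was 0.57 (SE 0.762, adjusted p = 0.639), and 1.64 without arrays 1 and 6 (adjusted p = 0.0241). Its second probe set gave 0.04 with all arrays (adjusted p = 0.934) and -0.04 without arrays 1 and 6 (adjusted p = 0.943). That probe set lay near the floor on 3 of the 5 lymphoma arrays and 4 of the 6 wild-type arrays. It thus cannot test the change of the main probe set. Spry1 had 8.26 and 8.44 in lymphomas 1 and 5 and 6.20 to 6.56 in the other 3, against 5.05 to 7.26 in wild type, a change of 0.91 (adjusted p = 0.269), and 0.49 without arrays 1 and 6 (adjusted p = 0.509). Lymphomas 1 and 5 were also those with high Xist, and their myeloid means, 10.88 and 10.87, were the highest of the 5, beside 8.77 to 10.08 in the other 3; the part of either in Spry1 was not tested.

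Dusp1 changed by -0.18 (adjusted p = 0.729), Dusp6 by -0.15 (adjusted p = 0.675), Spry4 by -0.12 (adjusted p = 0.727) and Spred1 by -0.42 (adjusted p = 0.517). Their intervals were wide, from -0.88 to 0.52 for Dusp1 and from -1.32 to 0.48 for Spred1. Without wild-type arrays 1 and 6, Dusp1 changed by -0.57 (interval -1.10 to -0.04, adjusted p = 0.104) and Spry4 by -0.36 (interval -0.68 to -0.04, adjusted p = 0.0917). Dusp6 then changed by -0.31 (adjusted p = 0.332) and Spred1 by -0.20 (adjusted p = 0.762), and none of these 4 was called in either fit.

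**Figure D5:**
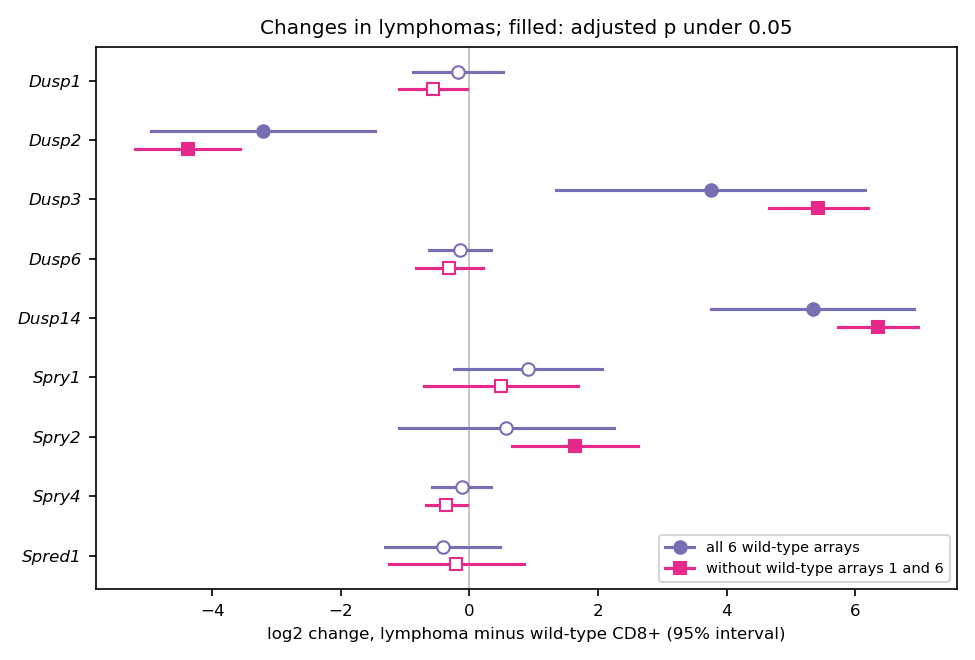
Log2 change of the 9 genes, lymphoma minus wild-type CD8+, with 95% intervals; circles use all 6 wild-type arrays, squares leave out arrays 1 and 6, and filled symbols have an adjusted p under 0.05. Dusp14 moves between 5.34 and 6.35, and Spry2 is filled only among the squares.

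The plot of lymphoma changes with and without both arrays shows narrower intervals for Dusp2, Dusp3 and Dusp14 once they are left out. Of 102 measured genes in the 7 pathway lists, 20 were called in lymphomas (19.6%, beside 16.8% of all genes), and 32 without wild-type arrays 1 and 6 (31.4%, beside 26.4% of all genes). Of 13 other dual-specificity phosphatases, Dusp18 was higher by 4.28 (adjusted p = 0.000547) and Dusp7 changed by -1.70 (adjusted p = 0.0266), a call kept in 5 of 11 fits without 1 array. The Dusp18 probe set lay in the lowest 25% of values on 5 of 6 wild-type arrays. Of 12 other inhibitors 1 was higher and 2 lower, with Rasa3, a Ras and Rap GTPase activator, at -2.92 (adjusted p = 0.000806).

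Of 12 cascade genes 1 was higher and 1 lower: Ksr1, a scaffold of the cascade, at 2.19 (adjusted p = 0.0105) and Rasgrp2, an exchange factor of lymphocytes and platelets, at -4.44 (adjusted p = 2.74e-05). Of 20 transcripts known to be induced by ERK 4 were higher and 1 lower, with Lif, a cytokine, at 4.55 (adjusted p = 0.00654), Fosl1 at 2.60 (adjusted p = 0.00126) and Plaur at -1.97 (adjusted p = 0.0259), a call kept in 7 of 11 fits without 1 array. The Fosl1 probe set lay in the lowest 25% of values on all 6 wild-type arrays. Of 16 growth factor genes 1 was higher and 1 lower, of 16 receptors and adaptors 0 and 2, and of 13 JNK and p38 genes 2 and 2. Without wild-type arrays 1 and 6 the other phosphatases had 3 higher and 3 lower, the inhibitors 2 and 3, and the cascade 1 and 2. The ERK-induced transcripts then had 4 and 3, the growth factor genes 2 and 3, the receptors 0 and 2, and the JNK and p38 genes 2 and 2. The receptors and the JNK and p38 genes thus had equal counts in both fits, although the called receptors differed. The other lists had more calls without these arrays. With 1 array left out, the growth factor genes had 0 to 2 higher, and 1 to 3 receptors and 1 to 3 inhibitors were lower. The other phosphatases then had 1 to 2 higher and 0 to 2 lower, and the cascade 1 to 2 lower. The JNK and p38 genes had 1 to 2 in each direction, 0 to 1 inhibitors and 0 to 1 receptors were higher, and 0 to 1 ERK-induced transcripts were lower. Fgf13 was lower in lymphomas (adjusted p = 0.000782), with a mean of 4.09 in lymphomas and 9.64 in wild type; on all 5 lymphoma arrays it lay in the lowest 25% of values. Igf1r led the receptors at -1.42 (adjusted p = 0.00568), and Map3k5 the JNK and p38 genes at -2.33 (adjusted p = 0.00332). Pdgfrb, the other receptor called lower, changed by -0.53 (adjusted p = 0.0438). It was not called without wild-type arrays 1 and 6 (-0.44, adjusted p = 0.0776). Without those arrays, all other lymphoma pathway genes named here were called in the same direction, with Lif at 5.79, Ksr1 at 2.85, Dusp7 at -2.17 and Plaur at -1.39.

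The MEF and T cell arrays were normalised separately, so levels were not tested between them. Over 20 arrays, each centred on the wild type of its own block, the genes most like Dusp14 were Ehd2 (Pearson r = 0.985) and Rin1 (r = 0.982). Those most like Dusp3 were Car5b (r = 0.986) and Themis2 (r = 0.985), and those most like Dusp2 were Izumo1r (r = 0.988) and Sidt1 (r = 0.983). Spry1 was followed less closely, by Mid1 (r = 0.816) and Arhgef3 (r = 0.806), and Dusp1 by Cetn2 (r = 0.885) and Smim26 (r = 0.870). Without wild-type CD8+ arrays 1 and 6, the value for Spry1 and Mid1 was 0.729 over 18 arrays. These values share arrays and groups and are descriptions.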

How the data were processed

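Per the labels, total RNA was hybridised to Affymetrix mouse arrays and the authors preprocessed the scans with Robust Multichip Average (RMA). The sources used here name neither its software nor a version. The deposited values are RMA intensity on a linear scale, not log2 as the design had assumed, and were log2-transformed here. Of 22690 probe sets, 64 controls were left out.

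The wild-type MEF arrays of the second set repeated the first, so 9 distinct MEF arrays were fitted with 6 residual degrees of freedom, in place of 12. The 11 T cell arrays were fitted separately (9 degrees of freedom). Groups were compared with limma 3.58.1 in R 4.3.3, lmFit and eBayes, with Benjamini-Hochberg adjustment over all 22626 probe sets and a threshold of 0.05. Named were all members, Ezh2 and Smarcb1, up to 3 called genes per pathway list with the largest change, and the 2 genes most like each called member. A few of these are given by counts only. Symbols came from the platform annotation, in which 20380 probe sets name 1 gene, 691 several and 1555 none. The fits were tested on simulated data. Of changes of 1 on the log2 scale, 92.5% were recovered for Ezh2-deficient minus wild-type MEFs and 97.0% for Snf5 Ezh2-deficient minus wild-type MEFs. In lymphomas the share was 1.49% for changes of 0.5, 41.8% for 1 and 60.6% for 2. A gene not called in lymphomas may thus still have changed. Array number and spread limit the precision. Alternatives were leaving out each array, array weights, renormalisation, other probe sets, other sets of MEF arrays and a replicate block. For genes with 1 probe set, the alternative with another probe set repeats the main fit. The members and lists were chosen with earlier results of these data known.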

Additional observations from a re-analysis of the deposited data

Results flagged for a closer look

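The following 4 results are singled out because the effect of the mutation differed between both MEF lines, by a test of the difference itself. Spry1 differed by 0.98 between Snf5 Ezh2-deficient and Ezh2-deficient MEFs and Dusp14 by -0.97. Dusp1 differed by -0.38 and Dusp3 by 0.21, but Dusp1 kept this call in only 8 of 14 alternative fits and Dusp3 in 7 of 14. The second Dusp3 probe set gave 0.16 and was not called (adjusted p = 0.174). All 4 results share the wild-type arrays and rest on the offset that joins both sets, and the test ignores the error of that offset. Ezh2 itself differed by 0.52 between both lines, and its part in these results was not tested. Dixon's test marked 0 of 18 groups of 5 or 6 T cell arrays, but it looks for 1 outlying array and cannot mark a pair that lies together, such as wild-type CD8+ arrays 1 and 6 for Dusp3, at 10.04 and 10.32 beside 4.21 to 5.91 on the other 4.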

How the results depend on the processing

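Of 559 member values under alternatives, 498 kept direction and side of the threshold, 31 lost the call, 3 gained it and 27 changed sign. None of those 27 was called in either fit, and none exceeded 0.24 in size. Most of the 498 were of results not called in the main fit. The lost calls were those of Dusp3, Dusp1 and Dusp2. Dusp3 kept its call in 7 of 15 fits for Snf5 Ezh2-deficient minus wild-type MEFs, 7 of 14 between both mutants and 10 of 19 in lymphomas. Dusp1 kept it in 8 of 14 between both mutants, and Dusp2 in 18 of 19 in lymphomas. For Ezh2-deficient minus wild-type MEFs, renormalised quantiles gave Dusp3 0.040 and Dusp14 0.019, array weights gave Dusp3 0.0015, Spry2 -0.023 and Spred1 -0.042, and the second Spred1 probe set gave -0.16. Leaving out 1 array gave -0.063 to 0.049 for Dusp3, -0.17 to 0.28 for Dusp6, -0.15 to 0.057 for Dusp14, -0.10 to 0.095 for Spry2 and -0.12 to 0.076 for Spred1. For Snf5 Ezh2-deficient minus wild-type MEFs, Spred1 was -0.041 with array weights, -0.084 by its second probe set and -0.065 to 0.078 with 1 array left out. For Snf5 Ezh2-deficient minus Ezh2-deficient MEFs, Spred1 was -0.025 with renormalised quantiles and -0.074 to 0.12 with 1 array left out, and Dusp6 -0.43 to 0.016. In lymphomas the second Spry4 probe set gave 0.027. Genes called for Ezh2 loss numbered 432, against 907 with array weights, 258 in its own set, 851 with all 12 arrays and 87 to 443 with 1 array left out. For Snf5 Ezh2-deficient minus Ezh2-deficient MEFs, 12 arrays gave 2 members and 1968 genes in place of 4 and 3704, and leaving out 1 array gave 2 to 3 members. In lymphomas 2088 genes were called, against 3227 with array weights and 3273 without wild-type arrays 1 and 6, and leaving out 1 array gave 1 to 3 members. The cause was not tested. The samples share only a replicate number: with it as a block, 213 genes were called for Ezh2 loss and the Dusp3 call in Snf5 Ezh2-deficient minus wild-type MEFs was lost (adjusted p = 0.0572), and 3 of 5 lymphomas correlated best with the wild-type array of their own number.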
